A study of Arabidopsis thaliana with 12 samples.

Results

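A group of 5 nuclear genes that act on organelle RNA, protein synthesis or DNA was followed in 12 hybridizations of Arabidopsis thaliana total RNA. They are CRR21, OTP85, OTP70, ATAB2 and OSB1, and they were chosen by name: a feature was taken where the platform annotation assigned it to a single gene and that gene was one of these. This gave 5 of the 3439 features in the table, 1 for each gene, and 0 features of several genes named any of them. The study compared 6 samples of wild type (WT) with 6 samples of the psbs mutant, which lacks the PSII-S protein. Both groups were of the Columbia 0 ecotype. Tissue, age, light and growth conditions are not given in the labels, and neither is the allele of the mutant. Nor do the labels say whether replicates came from separate plants, so p-values speak of the spread between these samples alone, and that spread may be technical. The comparison asks how transcript levels differ when the protein is missing.

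Chloroplasts and mitochondria keep small genomes of their own, but most of the proteins that process, translate and maintain those genomes are encoded in the nucleus. Many of them are pentatricopeptide repeat (PPR) proteins, each of which recognises short stretches of organelle RNA and directs the conversion of a cytidine to a uridine (editing), the removal of an intron, or the stabilisation of a transcript. CRR21 and OTP85 are PPR proteins needed for editing of the chloroplast ndhD transcript, which encodes a subunit of the NADH dehydrogenase-like complex of the thylakoid. OTP70 is a PPR protein needed for splicing of the plastid rpoC1 transcript, which encodes a subunit of the plastid RNA polymerase. ATAB2 binds RNA and takes part in the translation of photosystem subunits in light. OSB1 binds single-stranded DNA in mitochondria and limits recombination of the mitochondrial genome.

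The deposited values are linear intensities from 0 to 100, and the groups differed across the whole array. The median intensity of a sample lay between 0.304 and 0.379 in WT and between 0.0233 and 0.0361 in psbs, a 10.7-fold difference of the means. Between 13.0% and 13.7% of features were listed at exactly 0 in WT samples, and between 27.0% and 34.9% in psbs samples. The psbs replicates 1 and 2 stood apart, with 33.2% and 34.9% of features at 0 against 27.0% to 28.6% in replicates 3 to 6. Precision is limited by the number of samples. PSBS itself was on 0 features of a single gene, so the genotype of the samples was not checked. The labels name no batch of hybridization, and genotype and any batch shared by a whole group cannot be told apart. Of 4 marker lists for leaf, root, seed and flower, with 21 genes that the reference paired by symbol, 1 gene was measured. This was LHB1B2, a leaf light-harvesting protein, at 8.73 to 15.6 in WT and 27.3 to 34.3 in psbs, so the tissue was not further checked. In such bulk samples, fewer cells of a type and less RNA per cell cannot be told apart.

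Because intensities differed between the groups over the whole array, each gene is described on 3 scales. These are the deposited intensity, the percent rank among all 3439 features of the same sample, and the log2 value after quantile scaling. That scaling gives all samples a common distribution, except that values of exactly 0 were kept at 0. Since psbs samples held more features at 0, their lowest values above 0 were scaled to higher positions of that distribution than those of WT. Scaled values under 0.0559 were raised to that floor before log2 was taken. Differences of dim genes therefore depend on the floor, which can shrink them or turn their sign. Differences are psbs minus WT, from limma, with Benjamini-Hochberg adjustment over the 3359 features above 0 in at least 1 sample. A gene is called at an adjusted p under 0.05. A value of 0 may be a failed estimate as well as a low signal, so groups that hold a 0 are given by their single values.

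On the deposited scale CRR21, OTP70, ATAB2 and OSB1 had lower intensities in every psbs sample than in any WT sample, while OTP85 was above 0 in 4 psbs samples and in no WT sample. Groups separated in the lower direction were common on the array, at 67.3% of features tested. After quantile scaling, OTP70 fell by 0.40 on the log2 scale, OTP85 was called higher by 0.79 against WT values that all lay on the floor, and CRR21, ATAB2 and OSB1 did not pass the test. The background for such calls was 55.3% of features in either direction. No gene of the 5 was called in the same direction under all 4 scalings tried, against 24.3% of all features tested.

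**Figure D1:**
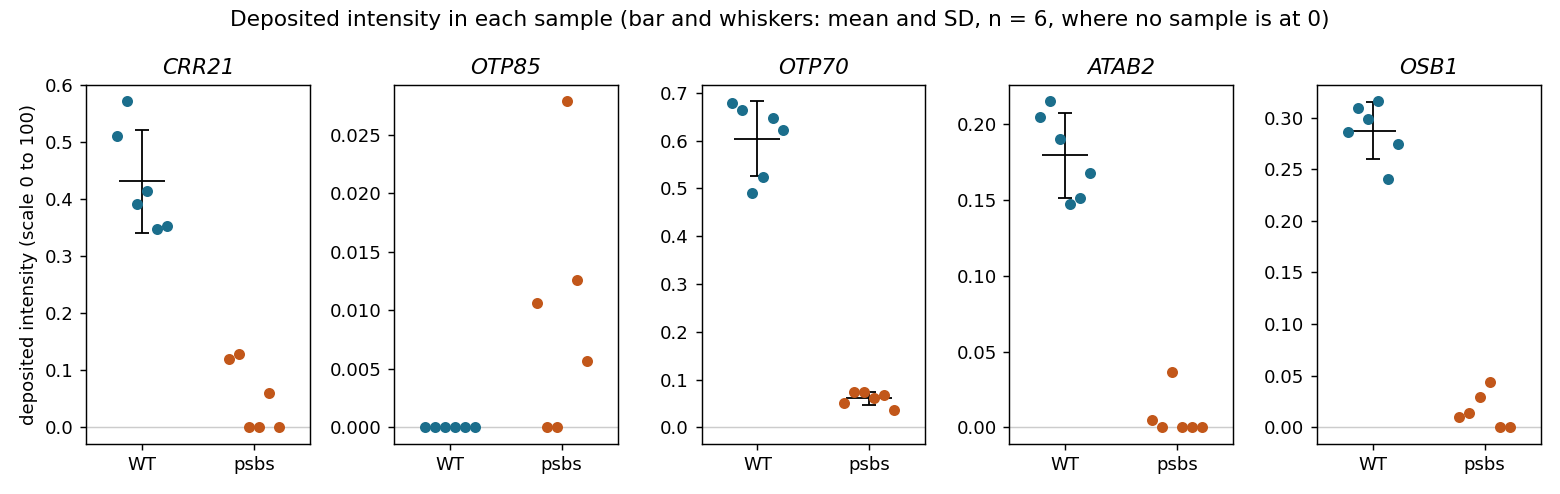
Deposited intensity (vertical axis, linear, with its own range in each panel) of CRR21, OTP85, OTP70, ATAB2 and OSB1 in WT and psbs samples, with 1 point per sample in the order of replicate numbers. Bars and whiskers give the mean and SD (n = 6) where no sample of the group is at 0. For all genes except OTP85, the highest psbs point lies below the lowest WT point, while OTP85 lies at 0 in WT and between 0 and 0.0279 in psbs.

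The editing factor CRR21 (AT5G55740) had deposited intensities of 0.510, 0.572, 0.392, 0.415, 0.348 and 0.353 in WT replicates 1 to 6. In psbs it was at 0.121 and 0.128 in replicates 1 and 2, at 0.0608 in replicate 5 and at 0 in replicates 3, 4 and 6. The groups did not overlap, and the lowest WT sample was 2.71 times the highest psbs sample. WT replicates 1 and 2 were the brightest of their group, and psbs replicates 1 and 2 the brightest of theirs.

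Within the samples CRR21 held 2 positions in psbs. It ranked at 54.8% to 65.8% of features in WT. In psbs replicates 1, 2 and 5 it ranked at 75.5%, 76.8% and 62.0%, so that the first 2 of these lay above every WT sample, and in the other 3 it stood with the features at 0. Against the sample's own median, CRR21 was at 1.14 to 1.51 times the median in WT, at 4.94 and 5.52 times the median in psbs replicates 1 and 2, and at 1.70 times the median in replicate 5.

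The scaled log2 difference of CRR21 was -0.75 ± 0.57 (SE, n = 6 per group), with a 95% interval from -1.99 to 0.48, and was not called (limma adjusted p = 0.268). The size and even the sign followed the psbs samples that were counted. Without psbs replicates 1 and 2 the difference was -1.61 and was called lower (limma adjusted p = 0.00892), as were 31.2% of features. With values of 0 treated as missing, which leaves 3 psbs samples, CRR21 was called higher, at 0.58 (limma adjusted p = 0.0167). Under that treatment 42.6% of features were called higher.

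The other editing factor, OTP85 (AT2G02980), was at 0 in WT replicates 1 to 6. In psbs it was at 0.0107, 0.0279, 0.0126 and 0.00570 in replicates 1, 4, 5 and 6, and at 0 in replicates 2 and 3. No fold is given, since WT holds no value above 0. The highest of these values was 0.797 times the median of its sample, so OTP85 lay below the median feature in every psbs sample. Of the 289 tested features at 0 in all 6 WT samples, 43 (14.9%) were, like OTP85, above 0 in at least 4 psbs samples.

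After quantile scaling OTP85 was higher by 0.79 ± 0.26 (SE, n = 6 per group; 95% interval from 0.22 to 1.36), and it was called (limma adjusted p = 0.0218), as were 26.2% of features in the higher direction. All 6 WT values lay on the floor, so the SE rests on the psbs samples alone, and OTP85 entered the test only through psbs, the group in which it is above 0. The call therefore adds nothing to the count of psbs samples above 0. The same holds for the call with consecutive replicate numbers averaged (limma adjusted p = 0.00594), beside 23.1% of features. OTP85 was not called on the values as deposited, where the difference was 0.24 (limma adjusted p = 0.310). There 2 of its 4 psbs values above 0 lay under the floor of 0.0115. It was also not called when each sample was divided by its median, at 0.46 (limma adjusted p = 0.162), or after cyclic loess, at 0.00088 (limma adjusted p = 0.998).

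In percent rank OTP85 was at 6.53% to 6.88% in WT and at 13.6% to 46.4% in psbs, and no test of this difference is given. A feature at 0 ranked at 6.53% to 6.88% in WT samples and at 13.5% to 17.5% in psbs samples, because psbs samples held more features at 0, so a feature at 0 in all 12 samples would also separate the groups. Measured instead as the share of features with a lower value, where a 0 stands at 0 in both groups, the difference was 25.5 points and did not pass (two-sided exact permutation test, p = 0.0606, adjusted p = 0.103, with 21.2% of features called higher). This measure was added after the values were seen.

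**Figure D2:**
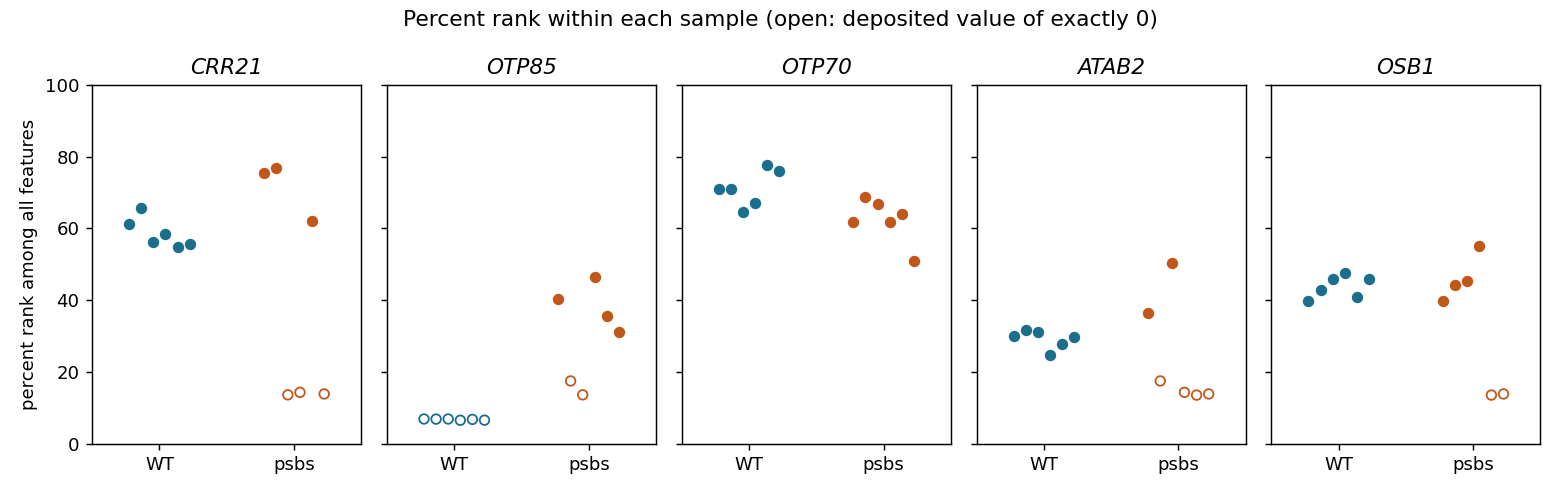
Percent rank (vertical axis, 0 to 100, all 3439 features of a sample) of the 5 genes in WT and psbs samples, with 1 point per sample in the order of replicate numbers. Open points are deposited values of exactly 0. OTP70 stays between 50.9% and 77.8% in all 12 samples, whereas CRR21, ATAB2 and OSB1 are divided in psbs between samples at 0 and samples near or above their WT rank. Any psbs value above 0 ranks above the 27.0% to 34.9% of features at 0 in its sample.

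The splicing factor OTP70 (AT4G25270) was the only gene of the 5 above 0 in all 12 samples. Its deposited intensity was 0.679, 0.663, 0.491, 0.524, 0.648 and 0.622 in WT replicates 1 to 6, a mean of 0.604 ± 0.0781 (SD, n = 6). In psbs it was 0.05002, 0.0730, 0.0749, 0.0606, 0.0671 and 0.0373, a mean of 0.0605 ± 0.0145 (SD, n = 6). The groups were far apart, with a 9.99-fold difference of the means, which lies beside the 10.7-fold difference of the sample medians.

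Relative to the median of its own sample, OTP70 was at 1.79 ± 0.258 times the median in WT samples and at 1.99 ± 0.680 times in psbs samples (SD, n = 6), and the groups overlapped. This median counts the features at 0, which were more in psbs. With each sample divided by the median of its values above 0, OTP70 was lower in psbs, by a log2 difference of -0.74 (limma adjusted p = 0.00426). Its mean percent rank was 71.3 ± 5.02 for WT and 62.4 ± 6.25 for psbs (SD over 6 samples). That was a difference of -8.92 points (two-sided exact permutation test, p = 0.0130, adjusted p = 0.0224 over all features, of which 29.4% were called lower). psbs replicate 6 was the lowest, at 50.9%, and psbs replicates 2 and 3, at 68.8% and 66.7%, lay above WT replicate 3, at 64.7%.

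The scaled log2 difference of OTP70 was -0.40 ± 0.15 (SE, n = 6 per group; 95% interval from -0.73 to -0.07; limma adjusted p = 0.0404), with 29.1% of features called lower. The call was near the threshold. It was lost after cyclic loess, at -0.26 (limma adjusted p = 0.343), and when consecutive replicate numbers were averaged (limma adjusted p = 0.152). It was also lost in 8 of the 12 fits that left out a single sample, as given at the end. Among the 1407 features above 0 in all samples the difference was larger, at -0.99 (limma adjusted p = 0.000156), and 37.0% of those features were called lower.

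The translation factor ATAB2 (AT3G08010) was at 0.204, 0.215, 0.190, 0.148, 0.151 and 0.168 in WT replicates 1 to 6. In psbs it was at 0.00491 in replicate 1, at 0.0367 in replicate 3 and at 0 in replicates 2, 4, 5 and 6. The groups did not overlap, and the lowest WT sample was 4.02 times the highest psbs sample. ATAB2 was at 0 in more psbs samples than the other genes that were above 0 in WT.

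In WT, ATAB2 ranked at 24.7% to 31.8%, below the middle of the array. In psbs replicates 1 and 3 it ranked at 36.6% and 50.3%, above every WT sample, and in the remaining psbs samples it stood with the features at 0. In psbs replicate 1, 33.2% of features were at 0, so any value above 0 there ranked above the WT range of ATAB2. The scaled log2 difference was -0.20 ± 0.31 (SE, n = 6 per group), with a 95% interval from -0.86 to 0.47, and was not called (limma adjusted p = 0.589). The floor bears on this value, because the WT samples lay only 0.36 to 0.85 above it on the log2 scale. As for CRR21, treating values of 0 as missing turned the sign, to 0.76 (limma adjusted p = 0.00913) over the 2 psbs samples that remained. Under that treatment 42.6% of features were called higher. Only the lowest psbs values of ATAB2 were removed in this way, so the turn cannot decide the direction.

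The mitochondrial DNA-binding protein OSB1 (AT1G47720) was at 0.286, 0.309, 0.299, 0.316, 0.240 and 0.275 in WT replicates 1 to 6. In psbs it was at 0.00993, 0.0141, 0.0291 and 0.0443 in replicates 1 to 4 and at 0 in replicates 5 and 6. The groups did not overlap, and the lowest WT sample was 5.42 times the highest psbs sample. The psbs values above 0 thus lay far below every WT value.

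OSB1 ranked at 39.9% to 47.6% in WT and at 39.9%, 44.3%, 45.4% and 55.0% in psbs replicates 1 to 4, so that replicates 2 and 3 lay inside the WT range and replicate 4 above it. The percent rank over all samples differed by -8.47 points (two-sided exact permutation test, p = 0.342, adjusted p = 0.408), and the scaled log2 difference was -0.42 ± 0.33 (SE, n = 6 per group; 95% interval from -1.14 to 0.29; limma adjusted p = 0.280). The percent rank of CRR21 and of ATAB2 did not pass either, at -16.0 points (two-sided exact permutation test, adjusted p = 0.243) and -4.84 points (adjusted p = 0.526). With a 0 placed at 0 in both groups the differences were -23.0 points for CRR21, -14.7 for ATAB2 and -13.0 for OSB1, and none passed (two-sided exact permutation test, adjusted p = 0.261, 0.215 and 0.452).

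The values of 0 fell on different psbs samples in different genes. In psbs replicate 1 all 5 genes were above 0, although that sample held more features at 0 than replicates 3 to 6. The genes at 0 were OTP85 and ATAB2 in replicate 2, CRR21 and OTP85 in replicate 3, CRR21 and ATAB2 in replicate 4, and ATAB2 and OSB1 in replicate 5. In replicate 6, CRR21, ATAB2 and OSB1 were at 0 and 2 genes were above 0. Of the 2908 features above 0 in all 6 WT samples, 51.6% were at 0 in at least 1 psbs sample, 22.3% in at least 3 and 14.2% in at least 4. Of the 4 genes here in that class, OSB1 was at 0 in 2 psbs samples, CRR21 in 3, ATAB2 in 4 and OTP70 in none.

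The scaling decided how many of the 5 genes were called. On the values as deposited, CRR21 (-3.66), OTP70 (-3.35), ATAB2 (-3.67) and OSB1 (-4.04) were called lower on the log2 scale, beside 73.0% of all features (80.4% in either direction), and the median of all features was itself at -2.86. When each sample was divided by the median of its values above 0, OTP70 (-0.74), ATAB2 (-1.46) and OSB1 (-1.62) were called lower, beside 36.0% of all features and a median of -0.41. After cyclic loess 0 of 5 were called at a limma adjusted p under 0.05, beside 49.6% of all features, and 0 of 5 had an unadjusted p under 0.05. The differences ran from -0.26 for OTP70 to 0.13 for CRR21. After quantile scaling 1 was called higher and 1 lower, and the median of the 5 was -0.40, against -0.14 over the features of a single gene and 0.05 over all features.

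**Figure D3:**
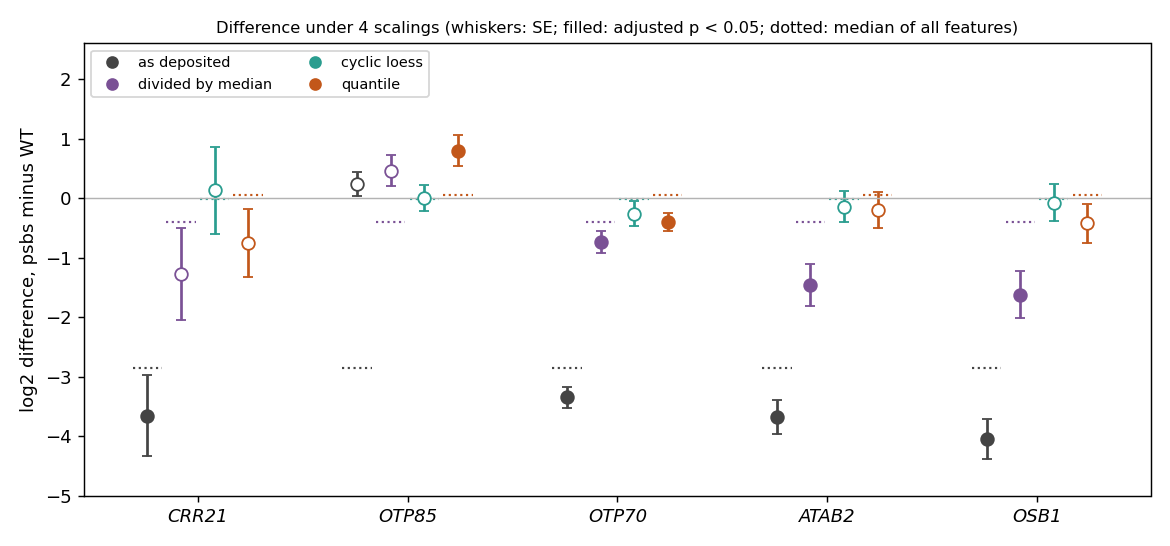
Log2 difference, psbs minus WT (vertical axis), of the 5 genes under 4 scalings, from limma with n = 6 per group. Whiskers are SE, filled points have an adjusted p under 0.05, and dotted lines give the median of all features under the same scaling. The points as deposited of CRR21, OTP70, ATAB2 and OSB1 lie at -3.35 to -4.04, below the dotted line at -2.86, and the points after loess lie within -0.26 and 0.13.

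Among the features of a single gene, the 4 genes measured in WT lay inside the main cloud of the array, in which most intensities were lower in psbs. Over all 3439 features, OTP70 had a higher mean WT intensity than 71.6% of features had, CRR21 than 59.3%, OSB1 than 42.8% and ATAB2 than 28.6%. These are positions on the array and not levels of one transcript against another, since features were not compared per length.

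**Figure D4:**
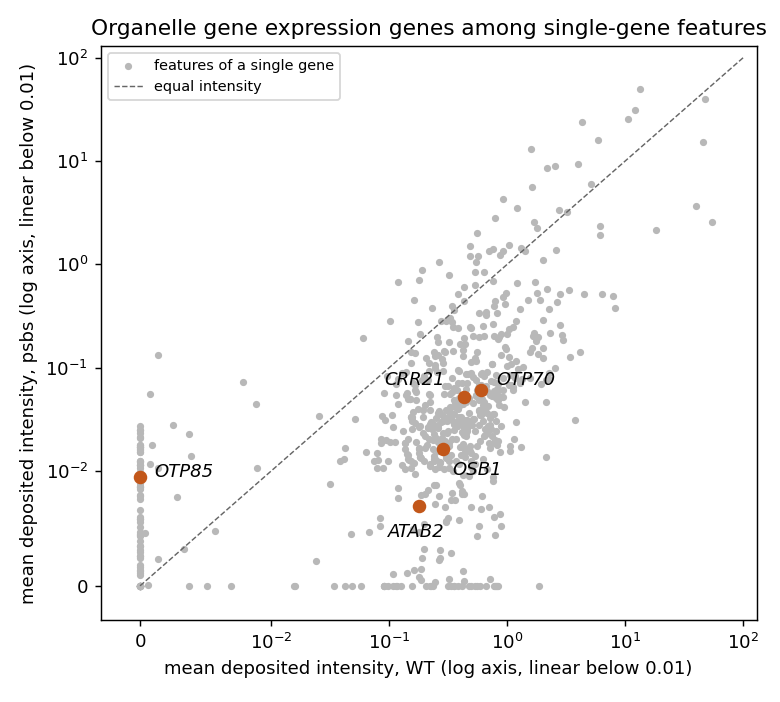
Mean deposited intensity in psbs (vertical axis) against WT (horizontal axis), both logarithmic above 0.01 and linear below it, for features of a single gene (grey) and the 5 genes (orange). Means include samples at 0. CRR21, OTP70, OSB1 and ATAB2 lie under the dashed line of equal intensity with most grey points, and OTP85 lies at 0 on the WT axis.

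Other genes of organelle gene expression were sought in 5 lists, on plastid editing, mitochondrial editing, organelle splicing, plastid RNA stability and translation, and organelle DNA binding. The lists held 117 genes, of which the reference paired 91 with their symbol, and 5 of these had a feature to themselves. They are the 5 genes described above, so no further gene of these pathways gave a value. A further 1 locus of the editing list lay on a feature, but the reference gives it no symbol and it was left out.

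For each gene, the features of a single gene whose scaled log2 values followed it most closely over the 12 samples were found among 588 candidates (589 for OTP85) above 0 in at least 6 samples. These correlations are a description. They were taken over samples in 2 groups, and values of 0 in shared psbs samples can weigh heavily where both genes hold them. Of the companions named below, AT1G13970, AT3G24190, AT3G57120 and AT5G41960 were above 0 in every psbs sample, so their pairs share no such value. CRR21 was followed most closely by AT1G13970, at r = 0.893, and by AT3G19120, at r = 0.880. For OTP85 the closest were AT2G28790, at 0.970, and AT3G61680, at 0.863. Both resembled OTP85 only after scaling and the floor, since their deposited intensities in WT were 0.0678 to 0.110 and 0.104 to 0.120 and not 0.

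OTP70 had the least close companions, AT3G24190 at 0.790 and AT3G57120 at 0.784. ATAB2 was followed by AT3G47100 at 0.858 and AT4G21820 at 0.841, and OSB1 by AT4G33480 at 0.867 and AT5G41960 at 0.843. Within the WT samples alone the pairs differed. There r was 0.889 for OTP70 with AT3G24190, 0.433 for CRR21 with AT1G13970 and 0.367 for ATAB2 with AT4G21820. It was below 0 for the other pairs, at -0.588 for CRR21 with AT3G19120, -0.293 for OTP70 with AT3G57120, -0.283 for ATAB2 with AT3G47100, and -0.471 and -0.370 for OSB1 with its companions, and OTP85 had no spread in WT. Within psbs alone r ran from 0.6252 for OTP70 with AT3G24190 to 0.975 for CRR21 with AT3G19120 (n = 6).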

How the data were processed

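Total RNA of 6 WT and 6 psbs samples was measured on an array. The values the authors deposited are linear intensities, 1 per feature and sample. The sources used here name no scanner, background correction or scaling. Titles of the samples gave groups and replicate numbers. The platform annotation gave gene names, and 690 of the 692 features of a single gene matched a locus of the TAIR10.1 gene list, which was used for names only.

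The 12 columns were quantile normalized with exact 0 values kept at 0, log2 was taken with a floor at the 5th percentile of pooled positive values. limma 3.58.1 in R 4.3.3 compared the groups over all 12 samples. Percent ranks were tested by exact permutation, two-sided (scipy 1.17.1, Python 3.11.15), adjusted over all features. The procedure was checked on simulated data. These held no shift of a whole group and no excess of 0 values in psbs, so the check does not cover those conditions. Figures were drawn with matplotlib 3.10.9.

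The genes, lists and tests were chosen with earlier results of these data known. The named genes are the 5 chosen by name, up to 6 measured genes a list and, for each of the 5, the 2 features of a single gene with the highest Pearson r. Alternatives changed scaling, floor, treatment of 0 values, filter, replicate block, averaging of consecutive numbers and samples left out. The genome build of the array design is not given in these sources, so no coordinates are printed, and no sequences were used here.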

Additional observations from a re-analysis of the deposited data

Results flagged for a closer look

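A sample lying apart from the rest of its group was looked for in 27 groups, over deposited intensity, scaled log2 value and percent rank, by the gap to the nearest sample against the range of the group. Chance alone picks about 5% of groups. The only sample found was ATAB2 in psbs replicate 3, at a deposited intensity of 0.0367, against 0 to 0.00491 in the other psbs samples. It was not flagged by scaled log2 value or percent rank. With 4 psbs samples tied at 0, the 5% is only a rough guide here.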

How the results depend on the processing

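The CRR21 difference was -3.66 as deposited and -1.61 without psbs replicates 1 and 2, both called, but 0.13 after loess and 0.58 with 0 values missing. ATAB2 was called lower as deposited (-3.67) and after division by the median (-1.46), but was at 0.17 with the floor at the 10th percentile and at 0.76 with 0 values missing. OSB1 was called lower as deposited (-4.04) and after division by the median (-1.62), and was at 0.10 with 0 values missing. The OTP70 difference was -0.26 after loess, not called. The OTP85 difference was 0.24 as deposited, 0.46 after division by the median, 0.00088 after loess and 0.37 with the higher floor, none called. OTP85 could not be fitted with 0 values missing, nor any gene but OTP70 with the filter to features above 0 throughout. The cause of these changes was not tested.

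Same-numbered WT and psbs samples deviated together weakly (r = 0.0569 to 0.154), so the numbers were not taken as pairs. Every sample was closest to its own number in the other group (6 of 6 in each), a hint from the data, not the design. Consecutive numbers deviated together in WT (r = 0.274 to 0.459) and in psbs replicates 1 and 2 (r = 0.385), less so in the other psbs pairs (r = 0.0682 and 0.0749). With the replicate number as a block OTP70 stayed at -0.40 but was not called (limma adjusted p = 0.0954), with 1833 calls over all features; nor was it, also at -0.40, with consecutive numbers averaged. Neither could reach the threshold for ranks.

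Without single samples log2 differences were -1.10 to -0.51 for CRR21, -0.47 to -0.30 for OTP70, 0.67 to 1.001 for OTP85, -0.51 to -0.10 for ATAB2 and -0.62 to -0.23 for OSB1. The OTP70 call was lost without WT replicate 1, 2, 5 or 6 or psbs replicate 1, 4, 5 or 6 (limma adjusted p = 0.0509 to 0.0851). The percent rank differences ran from -22.9 to -10.2 for CRR21, -10.2 to -6.62 for OTP70, 20.8 to 27.4 for OTP85, -10.0 to -2.67 for ATAB2 and -12.4 to -4.11 for OSB1. OTP70 was not called without WT replicate 5 (-7.62) or psbs replicate 6 (-6.62). Without psbs replicates 1 and 2, CRR21 was at -32.8 (exact permutation, adjusted p = 0.0428), with 2326 of 3359 features called. With a 0 placed at 0, OTP85 was at 25.5, not called.

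Of the 5 genes 2 were called (55.3% of all features), against 4 as deposited (80.4%), 3 after division by the median (56.6%), 3 with 0 values missing (68.7%), 3 without psbs replicates 1 and 2 (60.5%) and 0 after loess (49.6%). The count was 1 with the higher floor (55.2%), the filter (76.5%), the block (54.6%) or averaged numbers (47.2%), and 1 to 2 with a sample left out (51.6% to 57.5%). Over all features 1859 were called, 1077 with the filter and 1734 to 1925 with a sample left out.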
